A study of Rattus norvegicus with 12 samples.

Results

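A set of 40 genes of cystic kidney disease and the primary cilium was followed across the kidneys of 4 rat strains. The genes were taken from a list of polycystic, nephronophthisis, Bardet-Biedl, intraflagellar transport and cystic liver genes, and each was read from the brightest of the probe sets that carry its symbol alone, by mean over the 12 arrays. Of the 40 genes, 35 had such a probe set and 34 were tested, out of 14204 genes with a probe set and 10887 tested on the array. Bicc1, Glis3, Nek8, Rpgrip1l and Arl13b had none. Cep290, a transition zone protein, had a mean log2 signal of 5.14 to 5.28 in the 4 pools, below the detection level of 5.74 (the 40th percentile of all values), and was not tested.

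Kidneys were taken at 30 days of age from animals fed the 5LOD diet. SD is Sprague Dawley, an outbred stock, and PCK is the strain derived from it that carries a Pkhd1 mutation and develops polycystic kidney disease. The inbred Fawn Hooded Hypertensive strain is written FHH. In the congenic FHH.Pkhd1 strain, FHH.PCK-(D9Rat35-D9Rat70)/Mcwi, the chromosome 9 interval that holds Pkhd1 comes from PCK and the rest of the genome is meant to be that of FHH. For each strain 1 RNA pool was made from the kidneys of 6 animals, both sides, and hybridized to 3 Affymetrix rat expression arrays, so that each group of 3 arrays came from 1 pool. Every SD, SE and p-value below therefore describes the spread between arrays of a pool and not the spread between animals, and a difference between pools may reflect any way in which those 6 animals differed. None of the 40 genes lies on chromosome 9 in the GRCr8 annotation, and no value is given for Pkhd1, for which no probe set was named.

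The primary cilium is a single non-motile projection on most tubule cells of the kidney. Proteins are carried along it by intraflagellar transport trains, in which complex B travels outward on kinesin-2 motors and complex A takes part in the return. The BBSome, a coat of Bardet-Biedl proteins, moves membrane proteins out of the cilium, and the transition zone at its base acts as the gate. Polycystin-1 and polycystin-2 (Pkd1 and Pkd2) and fibrocystin, the product of Pkhd1, are found on the cilium, and loss of many ciliary proteins causes renal cysts.

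Many ciliary genes carry an X-box, the binding site of RFX transcription factors, near their start. To show what the members share in sequence, the RefSeq promoters of the GRCr8 build, from 250 bases before to 50 bases after each start, were searched on both strands for X-box letters. A full site was taken as GTTGCC followed after any 2 bases by GGNAAC, and a looser one as GTNGCC followed after any 2 bases by GGNNAC, so that every full site is also a looser one and holds the short site GTTGCC. Of the 40 members 34 had a promoter in the table, and 10 of these (29.4%) held the short site, against 13.1% of all 27457 genes with a promoter. The full site was found in 2 members, Arl6 and Mks1, against 0.346% of all genes, and the looser site also in Ift140, making 3 members against 1.16%. The windows below, of 30 bases each, show these 3 genes and the short sites of Bbs1 and Bbs5, written 5′ to 3′ on the gene's strand with the matching letters in capitals.
Arl6: aagctcccGTTGCCAAGGGAACgccgcgcg
Mks1: gcgtctccGTTGCCAGGGGAACggggcgcg
Ift140: tacgcacgGTCGCCCAGGGAACcctagctg
Bbs1: ctggctgagctgGTTGCCaagacgacgcct
Bbs5: caaagccgatgcGTTGCCttggtgtccata
They lie at chr11:54181337-54181366 (plus strand), chr10:73153157-73153186 (plus), chr10:14537461-14537490 (plus), chr1:211633435-211633464 (minus) and chr3:74818589-74818618 (plus), in the same order. Counted from the start, with 1 as its first base and -1 as the base before it, the capitals begin at -13 in Arl6, -56 in Mks1, -39 in Bbs5, 17 in Bbs1 and 4 in Ift140. These matches describe the letters in the window only. Of the 10 members with the short site, 2 passed the adjusted p of the limma fit as higher in PCK than in SD (Bbs2 and Prkcsh), 3 as lower (Bbs1, Bbs5 and Nphp4), and 5 did not pass. Over all tested genes 36.1% passed in that comparison, 1887 as higher and 2048 as lower. A link between the site and these differences was not tested.

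Most members had similar levels in the 4 pools. The gap between the highest and the lowest pool mean of a member had a median of 0.19 (log2) over the 35 genes, and it stayed under 0.5 in 31 of them. The array SD of a member within a pool ran from 0.0046 to 0.23, with a median of 0.056. Calls required an adjusted p under 0.05 in the limma fit together with a 1.5-fold or larger difference. In PCK minus SD 1 of 34 members was called, or 2.94%, against 3.11% of all tested genes. Between FHH.Pkhd1 and FHH limma called 0 members against 1.26% (14 of 34 had an unadjusted p under 0.05). Between PCK and FHH.Pkhd1 it called 2, or 5.88% against 5.82%. Between SD and FHH it called 0 against 3.31% (17 had an unadjusted p under 0.05). The share of all tested genes at that unadjusted limit is not given here, so these counts describe no trait of the members. Even the adjusted p alone was passed by 22.2% of all genes in FHH.Pkhd1 minus FHH and 37.1% in SD minus FHH. The interaction, which is PCK minus SD less FHH.Pkhd1 minus FHH, called 3, or 8.82% against 5.02%. The shares in PCK minus SD and between the mutant pools lie near those of the array as a whole, and with 34 members each call is 2.94%. The 3 genes behind the calls were Bbs1, Ift140 and Ahi1.

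The share of members that passed the adjusted p at any size lay below that of all genes in 4 of the 5 comparisons. It lay above it in FHH.Pkhd1 minus FHH, and the counts below include the called genes. In SD minus FHH the shares lay near each other, and with 34 members each gene is 2.94%. With the adjusted p alone and no limit on size, 9 of 34 members passed in PCK minus SD against 36.1% of all genes, and 9 in FHH.Pkhd1 minus FHH against 22.2%. The count was 13 in PCK minus FHH.Pkhd1 against 54.0%, 12 in SD minus FHH against 37.1% and 8 in the interaction against 30.7%. As shares of the members these counts were 26.5%, 26.5%, 38.2%, 35.3% and 23.5%. The 95% interval of the difference lay wholly within 1.5-fold for 33 of 34 members in PCK minus SD (94.5% of all genes) and for 33 in FHH.Pkhd1 minus FHH (97.3% of all genes). Between PCK and FHH.Pkhd1 this held for 31 (89.7% of all genes), and between SD and FHH for 34 (94.3% of all genes). The members' median difference was 0.01, -0.01, -0.08 and -0.02 in these 4 comparisons, beside -0.00, 0.01, -0.06 and -0.04 over all genes.

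**Figure D1:**
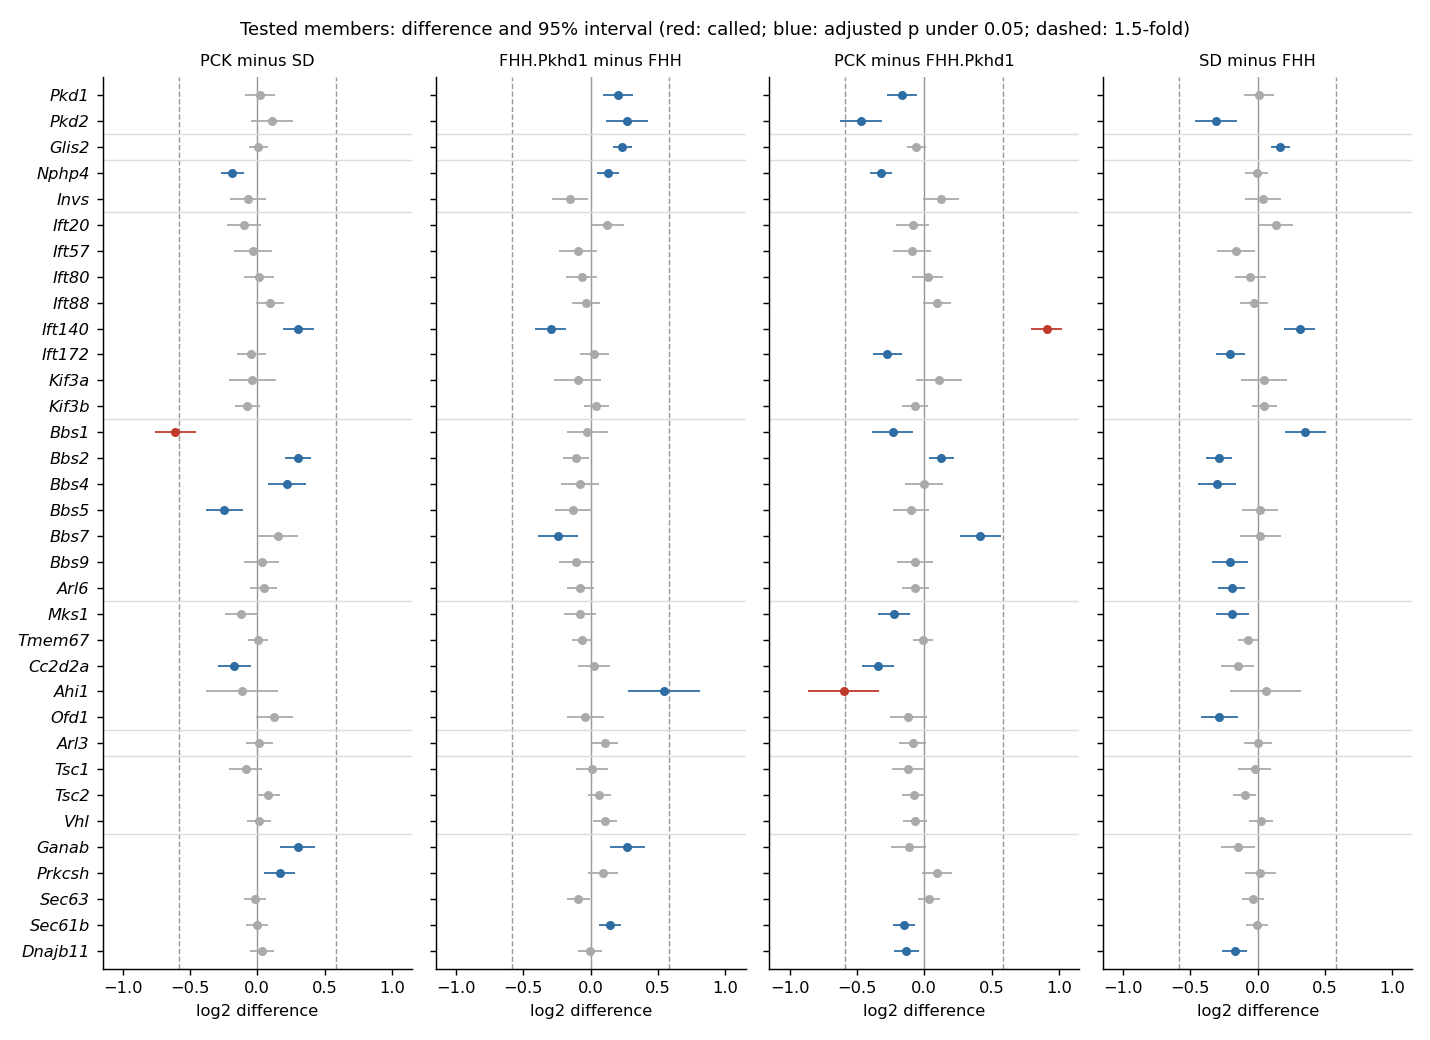
Log2 difference of each of the 34 tested members (rows, grouped by role) in 4 comparisons of pools, with 95% intervals from the limma fit, the dashed lines at 1.5-fold, called members in red and others with an adjusted p under 0.05 in blue. Most points lie between the dashed lines; Bbs1 in PCK minus SD (-0.61), and Ift140 (0.91) and Ahi1 (-0.60) in PCK minus FHH.Pkhd1, were called.

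The split into higher and lower among the differences that passed changed with the scaling of the arrays in all comparisons but PCK minus SD. In PCK minus SD 5 members passed as higher and 4 as lower, with the same split when each array was centred on its median. In FHH.Pkhd1 minus FHH the split was 7 higher and 2 lower, and 6 and 4 after centring. In PCK minus FHH.Pkhd1 it was 3 and 10, and 7 and 7 after centring. In SD minus FHH it was 3 and 9, and 5 and 7 after centring, and in the interaction 4 and 4, and 4 and 7 after centring. Over all tested genes the share of higher among those that passed was 34.0% between PCK and FHH.Pkhd1 and 34.1% between SD and FHH, and 52.1% and 60.5% after centring, so that the members' splits moved with those of the array. None of the 51 member differences that passed changed sign under centring or quantile normalization, and 45 and 48 of them still passed.

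Pkd1 and Pkd2, the genes of dominant polycystic kidney disease, did not pass the adjusted p in PCK minus SD, with differences of 0.02 ± 0.05 and 0.11 ± 0.07 (log2, SE). Pkd2, the cation channel subunit, read 9.03, 9.14 and 9.15 on the PCK arrays and 9.15, 9.01 and 8.83 on the SD arrays. On the FHH arrays it read 9.35, 9.25 and 9.31, and on the FHH.Pkhd1 arrays 9.63, 9.60 and 9.50. The PCK and SD arrays overlapped, both lay below the FHH arrays, and the FHH.Pkhd1 arrays lay above all others. Pkd2 was 1.21-fold higher in FHH.Pkhd1 than FHH (0.27 ± 0.07, limma adjusted p = 0.0168) and 1.38-fold lower in PCK than in FHH.Pkhd1 (-0.47 ± 0.07, adjusted p = 0.000164). Its second detected probe set gave -0.17 and 0.19 in these comparisons, with the opposite sign. Pkd1, the large receptor-like partner, had 1 probe set and differed by 0.20 ± 0.05 in FHH.Pkhd1 minus FHH (adjusted p = 0.0147).

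Intraflagellar transport and kinesin-2 supplied the member with the largest difference between pools, Ift140, a core subunit of complex A. It read 7.42, 7.31 and 7.42 on the PCK arrays, 7.11, 7.08 and 7.06 on the SD arrays, 6.89, 6.70 and 6.73 on the FHH arrays and 6.46, 6.42 and 6.54 on the FHH.Pkhd1 arrays. The 4 pools did not overlap and fell in the order PCK, SD, FHH and FHH.Pkhd1. Each step in that order passed the adjusted p, with 0.30 ± 0.05 for PCK minus SD (adjusted p = 0.000767), 0.31 ± 0.05 for SD minus FHH (0.000654) and -0.30 ± 0.05 for FHH.Pkhd1 minus FHH (0.00185). The ends of the order, PCK and FHH.Pkhd1, differed 1.88-fold (0.91 ± 0.05, limma adjusted p = 3.54e-08), which is past 1.5-fold and was called in every alternative run. A single probe set measured the gene.

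The other 7 genes of the group moved little. Ift172, a complex B subunit, was at 7.67 in PCK and 7.72 in SD against 7.92 in FHH and 7.95 in FHH.Pkhd1. It was lower in PCK than in FHH.Pkhd1 (-0.27 ± 0.05, adjusted p = 0.000576) and in SD than in FHH (-0.20 ± 0.05, adjusted p = 0.0068). The complex B genes Ift20, Ift57, Ift80 and Ift88 and the motor subunits Kif3a and Kif3b passed in none of the 4 comparisons. Their differences in PCK minus SD ran from -0.10 for Ift20 to 0.09 for Ift88. A second detected probe set of Kif3a gave 0.33 in PCK minus SD, where the kept one gave -0.04.

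Among the 7 Bardet-Biedl genes Bbs1, a BBSome subunit that binds the GTPase Arl6, was the one called in PCK minus SD. It read 6.64, 6.91 and 6.82 on the PCK arrays against 7.44, 7.44 and 7.34 on the SD arrays. The FHH arrays read 7.09, 7.08 and 6.99 and the FHH.Pkhd1 arrays 7.11, 6.90 and 7.06. SD stood above every other array and PCK lay below SD and FHH, while FHH and FHH.Pkhd1 overlapped. PCK was thus 1.53-fold below SD (-0.61 ± 0.07, limma adjusted p = 2.89e-05), close to the limit of 1.5-fold, and it was -0.54 and not called without PCK replicate 1. The second detected probe set gave -0.49, and the mean of both -0.55, also not called. In SD minus FHH the gene differed by 0.35 ± 0.07 (adjusted p = 0.00193), so that SD stood apart from FHH as well as from PCK.

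Bbs2, another BBSome subunit, ran the other way, with 9.92, 10.02 and 10.02 on the PCK arrays and 9.71, 9.69 and 9.65 on the SD arrays. It read 10.02, 9.96 and 9.92 in FHH and 9.92, 9.80 and 9.86 in FHH.Pkhd1. SD lay below every other array here. The gene was 1.23-fold higher in PCK than in SD (0.30 ± 0.04, limma adjusted p = 0.000192) and lower in SD than in FHH (-0.29 ± 0.04, adjusted p = 0.000307). Of the remaining subunits, Bbs4 was higher in PCK than in SD (0.22 ± 0.06, adjusted p = 0.0184) and Bbs5 lower (-0.25 ± 0.06, adjusted p = 0.00874). Subunits of the same complex therefore passed in both directions in PCK minus SD, 2 higher and 2 lower of the 7 genes of the group. For Bbs7 FHH.Pkhd1 lay below FHH (-0.24 ± 0.07, adjusted p = 0.0237), and its second probe set gave -0.03. Bbs9 and Arl6, which recruits the BBSome to membranes, did not pass in PCK minus SD (0.03 ± 0.06 and 0.05 ± 0.05) and were lower in SD than in FHH (-0.21 ± 0.06 and -0.19 ± 0.05). The Bbs9 difference did not pass after centring (-0.14, adjusted p = 0.0911) or quantile normalization (-0.14, adjusted p = 0.0965).

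**Figure D2:**
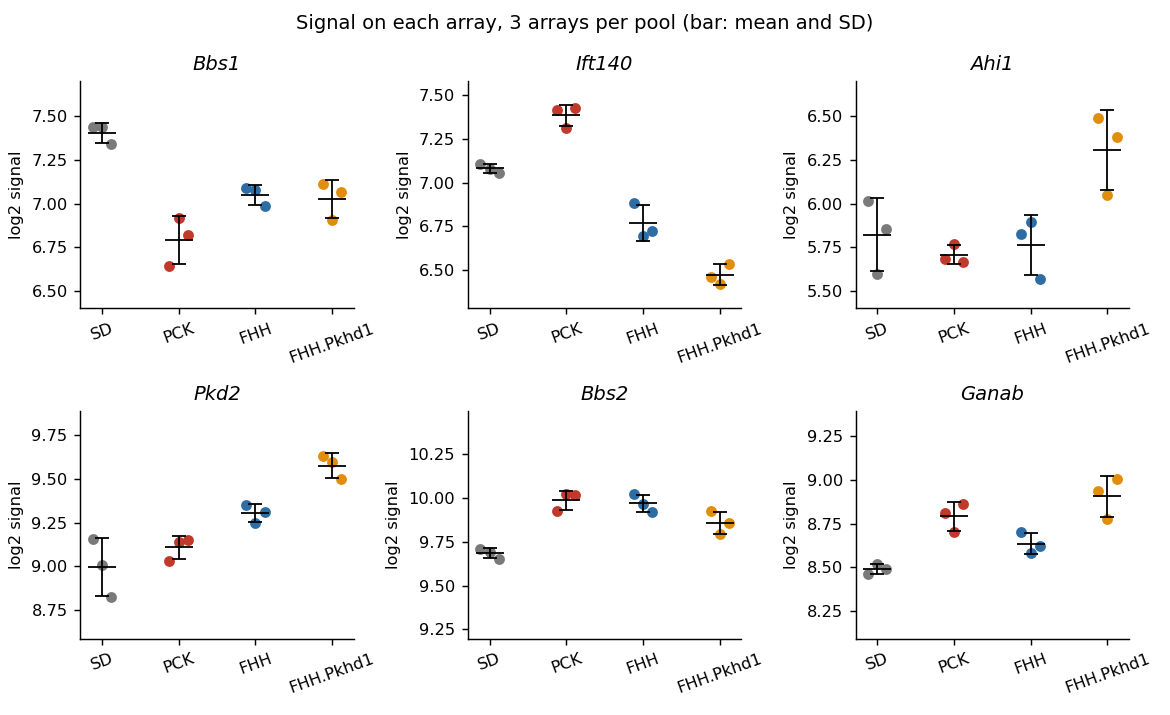
Log2 signal of 6 members on each of the 12 arrays by pool (points, with mean and SD of 3 arrays), each panel spanning the same 1.3 log2 units. The 4 pools of Ift140 do not overlap (7.38 in PCK to 6.47 in FHH.Pkhd1), SD is highest for Bbs1 (7.40) and lowest for Bbs2 (9.68), and FHH.Pkhd1 is highest for Ahi1 (6.31) and Pkd2 (9.58).

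In the transition zone and Joubert-Meckel group 5 of 7 genes were tested. Ahi1, which encodes jouberin, a protein of the ciliary base mutated in Joubert syndrome, read 6.49, 6.05 and 6.38 on the FHH.Pkhd1 arrays. It read 5.83, 5.90 and 5.57 on the FHH arrays, 5.69, 5.77 and 5.67 on the PCK arrays and 6.01, 5.60 and 5.85 on the SD arrays. The FHH.Pkhd1 arrays lay above all 9 others, and the other 3 pools overlapped. FHH.Pkhd1 minus FHH was 0.54 ± 0.12 (limma adjusted p = 0.00768). The fitted PCK minus FHH.Pkhd1 difference was -0.60 ± 0.12 (adjusted p = 0.00143), but the PCK mean of 5.71 was below the detection level. With PCK set at that level, Ahi1 was at least 1.48-fold lower in PCK, which is under the 1.5-fold limit.

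These Ahi1 values depend on the probe set and on single arrays. Its second probe set, with pool means of 5.59 to 5.84, gave 0.03 in FHH.Pkhd1 minus FHH and 0.09 in PCK minus FHH.Pkhd1. The call in PCK minus FHH.Pkhd1 was lost without PCK replicate 3 (-0.58) and without FHH.Pkhd1 replicate 1 (-0.51) or 3 (-0.56). It was also lost with each array centred on its median (-0.53) and with the mean of the probe sets (-0.26). FHH.Pkhd1 minus FHH passed 1.5-fold without FHH replicate 2 (0.61) or FHH.Pkhd1 replicate 2 (0.67).

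Cc2d2a and Mks1, both components of the Meckel complex at the transition zone, were lower in PCK than in FHH.Pkhd1 (-0.34 ± 0.06, adjusted p = 0.000273, and -0.23 ± 0.05, adjusted p = 0.00421). In PCK minus SD Cc2d2a passed at -0.17 ± 0.06 (limma adjusted p = 0.0305), with overlapping arrays. Mks1 did not pass there, at -0.12 ± 0.05. The second detected probe set of Mks1 gave 0.01 in PCK minus FHH.Pkhd1. Tmem67, the membrane protein meckelin, stood at 8.23 to 8.30 in all pools and passed in no comparison. Ofd1, a protein of the centriole and its satellites, was lower in SD than in FHH (-0.28 ± 0.06, adjusted p = 0.00401), with an SD mean of 5.63 below the detection level, and at least 1.13-fold lower with SD set at it.

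Of the nephronophthisis genes Nphp4 and Invs, Nphp4, a transition zone scaffold, was lower in PCK than in SD (-0.19 ± 0.04, adjusted p = 0.00247) and higher in FHH.Pkhd1 than in FHH (0.13 ± 0.04, adjusted p = 0.0318). Its arrays read 6.05, 6.01 and 6.01 in PCK, 6.19, 6.27 and 6.16 in SD, 6.20, 6.23 and 6.21 in FHH and 6.33, 6.40 and 6.31 in FHH.Pkhd1. PCK was lowest and FHH.Pkhd1 highest, with SD and FHH overlapping between them. With each array centred on its median the FHH.Pkhd1 minus FHH difference was 0.11 and did not pass (adjusted p = 0.0895). Invs, which organizes a compartment of the proximal cilium, passed in none of the 4 comparisons.

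Glis2, a zinc finger transcription factor mutated in nephronophthisis, was higher in FHH.Pkhd1 than in FHH (0.23 ± 0.03, adjusted p = 0.000322) and at 9.65 and 9.64 in PCK and SD. FHH was the low pool, at 9.47 against 9.71 in FHH.Pkhd1. SD was also higher than FHH (0.17 ± 0.03, limma adjusted p = 0.00175), and PCK minus FHH.Pkhd1 was -0.06 and did not pass. The ciliary GTPase Arl3, which releases lipidated cargo, and the tumour suppressors Tsc1, Tsc2 and Vhl, whose loss gives renal cysts, passed in no comparison. Their differences ran from -0.12 for Tsc1 in PCK minus FHH.Pkhd1 to 0.11 for Vhl in FHH.Pkhd1 minus FHH.

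The 5 genes of the endoplasmic reticulum, which when mutated cause cystic liver or kidney disease by impairing the folding or insertion of proteins such as polycystin-1, included Ganab. This catalytic subunit of glucosidase II read 8.81, 8.70 and 8.86 in PCK against 8.46, 8.52 and 8.49 in SD, and 8.94, 8.78 and 9.01 in FHH.Pkhd1 against 8.70, 8.58 and 8.62 in FHH. The mutant pool lay above its partner on every array in both comparisons. The differences were 0.30 ± 0.06 (1.23-fold, limma adjusted p = 0.00179) and 0.27 ± 0.06 (1.21-fold, adjusted p = 0.00657). These comparisons share no array, but Ganab was picked after its values were seen. The share of all tested genes that were higher in both is not given, so the agreement is no independent support. Markers of principal cells summed to a linear signal of 13253 to 13568 in PCK against 9996 to 10345 in SD, and 14441 to 14658 in FHH.Pkhd1 against 11886 to 11935 in FHH. Intercalated cell markers summed to 4395 to 4638 against 3484 to 3579, and 5059 to 5170 against 4122 to 4252. Both lists were thus higher in the same pools as Ganab, but they were not alone in this. Podocyte, endothelium and macrophage markers also summed higher in each mutant pool than in its partner, without overlap of the arrays. The median difference of the endothelium markers was nevertheless -0.04 in FHH.Pkhd1 minus FHH. Proximal tubule, thick ascending limb and distal tubule, red cell, fat and dividing cell markers instead summed lower in PCK than in SD. Of the 6 principal cell markers 1 was called higher in PCK than in SD, and 0 in FHH.Pkhd1 than in FHH. Of the 5 tested intercalated cell markers 1 was called higher in each of these comparisons. The part of these lists in the Ganab differences was not tested. Prkcsh, the other subunit of the enzyme, gave 0.17 ± 0.05 (adjusted p = 0.0261) and 0.09 ± 0.05, the latter not passing. Sec61b, of the translocon, was higher in FHH.Pkhd1 than in FHH (0.14 ± 0.04, adjusted p = 0.0195) and gave -0.00 in PCK minus SD. Sec63 and the co-chaperone Dnajb11 passed in neither. For Sec63 4 probe sets disagreed, with -0.09 from the kept set in FHH.Pkhd1 minus FHH and 0.53 from another detected one.

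**Figure D3:**
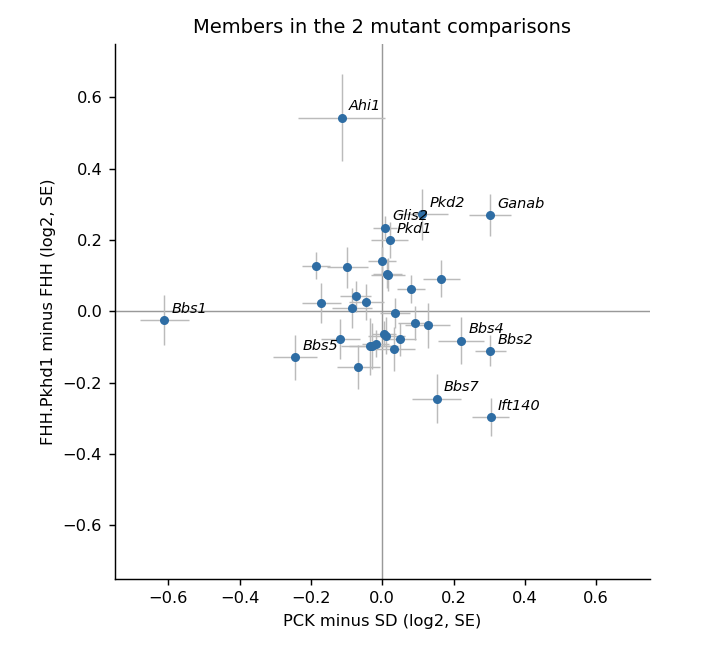
Log2 difference of each tested member in PCK minus SD (x axis) and FHH.Pkhd1 minus FHH (y axis), with SE from limma, in 2 comparisons that share no array. Ganab is higher in both (0.30 and 0.27), Ift140 is higher in one and lower in the other (0.30 and -0.30), and Bbs1 (-0.61 and -0.02) and Ahi1 (-0.11 and 0.54) are far from 0 in 1 of them.

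Whether the difference between mutant and partner pool was the same in both pairs of pools was tested by the interaction. With 1 pool per strain it cannot show a dependence on the background. Ift140 passed in opposite directions, at 0.30 for PCK against SD and -0.30 for FHH.Pkhd1 against FHH, with an interaction of 0.60 ± 0.07 (limma adjusted p = 8.13e-05). Nphp4 had an interaction of -0.31 ± 0.05 (adjusted p = 0.000964), under 1.5-fold, and its higher value in FHH.Pkhd1 did not pass after centring. Bbs1 had an interaction of -0.59 ± 0.10 (adjusted p = 0.000808), with a difference of -0.02 ± 0.07 in FHH.Pkhd1 minus FHH. Bbs2 (0.41 ± 0.06, adjusted p = 0.000333), Bbs7 (0.40 ± 0.10) and Bbs4 (0.30 ± 0.09) passed with the opposite sign to Bbs1. The second probe set of Bbs1 gave -0.65, that of Bbs7 0.19 and that of Bbs4 -0.03. Ahi1 gave -0.66 ± 0.17 (adjusted p = 0.0127), or -0.62 with PCK set at the detection level, and its second probe set gave -0.17. Glis2 gave -0.23 ± 0.05. Glis2 did not pass in PCK minus SD, and Ganab, with an interaction of 0.03, did not pass in the interaction. Beside the interaction of these members, 3 of 3 red cell, 3 of 4 adrenal cortex and 4 of 6 dividing cell markers were called lower and 3 of 4 urothelium markers higher; their part in it was not tested.

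SD and PCK on the one side and FHH and FHH.Pkhd1 on the other separated completely for 6 of the 34 members, or 17.6%, against 19.8% of all tested genes. Ift140 was higher in the 6 SD and PCK arrays (7.06 to 7.42) than in the 6 FHH and FHH.Pkhd1 arrays (6.42 to 6.89). Pkd2, Ift172, Mks1, Cc2d2a and Dnajb11 were lower. For Pkd2 this rests on the kept probe set. The second detected one gave 0.03 in SD minus FHH and 0.19 in PCK minus FHH.Pkhd1, with the opposite sign. With each array centred on its median Ift140, Pkd2 and Ift172 remained apart, Bbs7 became so (higher), and Mks1, Cc2d2a and Dnajb11 overlapped. That left 2 members higher and 2 lower, with 18.1% of all tested genes apart. Over all tested genes 631 were higher and 1529 lower before centring, and 1181 and 786 after it.

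**Figure D4:**
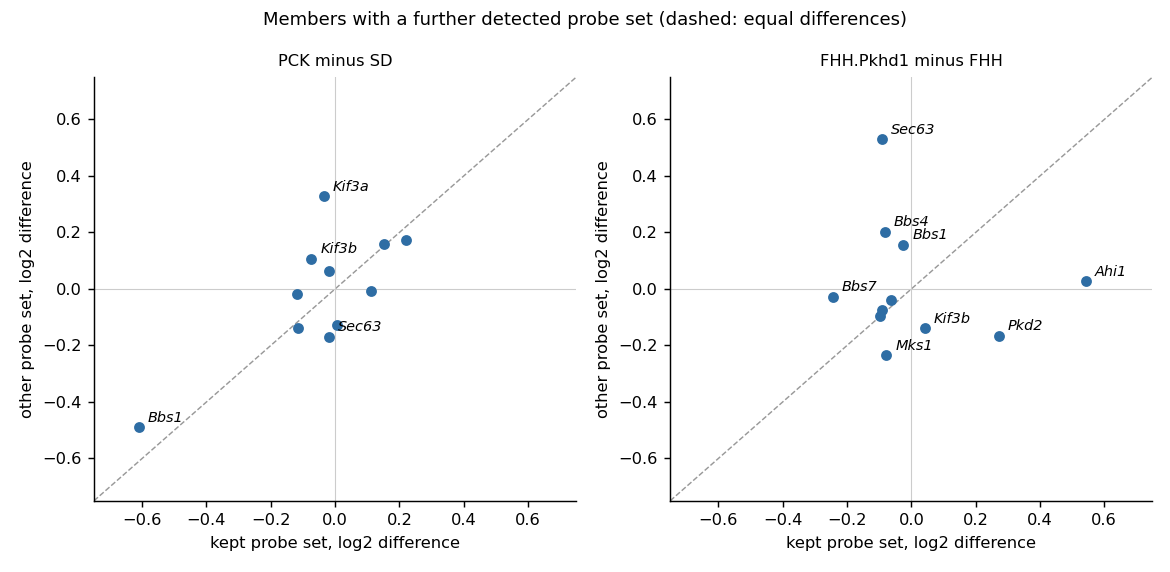
Log2 difference from the kept probe set of a member (x axis) and from each of its other detected probe sets (y axis), for PCK against SD and FHH.Pkhd1 against FHH, dashed line at equal values. Bbs1 lies near the line in PCK minus SD (-0.61 and -0.49), while Ahi1 (0.54 and 0.03) and Sec63 (-0.09 and 0.53) lie far from it in FHH.Pkhd1 minus FHH.

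Of 13 members with several probe sets 10 had another detected one, 11 probe sets in all. Against the kept set the sign matched for 6 of these 11 in PCK minus SD, 6 between FHH.Pkhd1 and FHH, 4 between PCK and FHH.Pkhd1 and 7 between SD and FHH. The largest gap between the sets was 0.36, 0.62, 0.69 and 0.33 in that order, larger than most of the members' differences between pools.

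A wider list of genes of the cilium and of cystic disease was read the same way. Of its 96 such genes 80 had a probe set and 73 were tested. In PCK minus SD 2 of these 73, or 2.74%, were called, against 3.11% of all tested genes. Dcdc2, a microtubule-binding protein mutated in a form of nephronophthisis, was higher (0.77 ± 0.06, limma adjusted p = 5.3e-07). Dync2i2, an intermediate chain of the dynein-2 motor that drives return transport, was lower (-0.71 ± 0.04, adjusted p = 5.43e-08). PCK stood apart in both, with 7.66 for Dcdc2 against 6.90, 6.94 and 7.03 in SD, FHH and FHH.Pkhd1, and 7.39 for Dync2i2 against 8.10, 8.13 and 8.07. Each had 1 probe set, and both calls held in every alternative run. In FHH.Pkhd1 minus FHH 1 was called, or 1.37% against 1.26% of all tested genes. This was Xpnpep3, an aminopeptidase linked to a nephronophthisis-like disease, at -0.60 ± 0.07 (limma adjusted p = 0.000103). It was not called without FHH replicate 1 (-0.57) or 3 (-0.57), without FHH.Pkhd1 replicate 1 (-0.54) or after quantile normalization (-0.58). In PCK minus FHH.Pkhd1 3 were called, or 4.11% against 5.82% of all tested genes. They were Dcdc2 (0.63), Dync2i2 (-0.69) and Tctn1, a transition zone protein (-0.61 ± 0.07). Tctn1 had a second detected probe set at 0.09, and its call was lost without PCK replicate 1 (-0.56) or FHH.Pkhd1 replicate 1 (-0.54), after centring (-0.54), after quantile normalization (-0.54) and with the mean of the probe sets (-0.26). In SD minus FHH limma called 0 of 73 against 3.31% (32 had an unadjusted p under 0.05). The share of all tested genes at that unadjusted limit is not given here.

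With the adjusted p alone 24, 12, 43 and 25 of the 73 passed in these 4 comparisons, against 36.1%, 22.2%, 54.0% and 37.1% of all tested genes. In PCK minus FHH.Pkhd1 8 were higher and 35 lower, and after centring 15 and 26, with a list median of -0.12 and -0.06. Over all tested genes 1995 were higher and 3879 lower, and after centring 2937 and 2696, with a median of -0.06 and 0.01. In SD minus FHH 5 of the list were higher and 20 lower, and after centring 8 and 11, and over all genes 1377 and 2666, and after centring 2463 and 1607. Of the RFX factors Rfx1, Rfx3 and Rfx5 were tested and passed in none of the comparisons.

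Markers of other cell types differed between the pools, and in RNA from whole kidneys fewer cells of a type and less RNA per cell cannot be told apart. All 8 proximal tubule markers were detected, and none was called in the 4 comparisons. Of the 8 markers of multiciliated epithelium, cells with many motile cilia, 4 had a probe set, and Foxj1 and Dnai1 were below the detection level in every pool. Their summed linear signal ran from 146 to 172 over the 12 arrays. Beside the Bbs1 difference, all 3 measured red cell markers were called lower in PCK than in SD, with a summed signal of 6616 to 6781 in PCK and 11712 to 11872 in SD. The sum was 6151 to 6333 in FHH and 6800 to 7336 in FHH.Pkhd1, so that SD stood above every other pool. Of the 2 tested multiciliated markers Tekt1 was called higher in PCK than in SD (0.70 ± 0.09, limma adjusted p = 7.54e-05) and in the interaction (0.72). The other lists had at most 1 marker called in PCK minus SD. In SD minus FHH 3 of 3 red cell markers were called higher. Called lower there were 3 of 4 adrenal cortex, 3 of 4 fat, 2 of 4 urothelium and 1 of 6 fibroblast and smooth muscle markers. Beside the members that passed in FHH.Pkhd1 minus FHH, 3 of 4 adrenal cortex markers were called higher. Beside the Ift140 and Ahi1 differences between PCK and FHH.Pkhd1, 4 of 4 adrenal cortex markers, 3 of 4 fat markers, 3 of 6 fibroblast and smooth muscle markers and 2 of 6 dividing cell markers were called lower in PCK. Adrenal markers summed to 202 to 228 in PCK and 1164 to 1272 in FHH.Pkhd1, and fat markers to 832 to 895 and 2009 to 2149. Fibroblast and smooth muscle markers summed to 4425 to 4487 and 6586 to 6913, and dividing cell markers to 1245 to 1419 and 2042 to 2104. Of the adrenal cortex, fat, fibroblast and smooth muscle and dividing cell genes with a probe set, Lep alone was below the detection level in every pool. The poly-A spike-ins had a mean of 10.77 in PCK, 10.43 in SD, 11.07 in FHH and 9.97 in FHH.Pkhd1, and the 3′ minus 5′ gap of beta-actin was 1.33, 1.10, 1.39 and 1.20. The part of these differences in the members' values was not tested.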

How the data were processed

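The authors deposited log2 probe set signals of 12 arrays. The submitters' processing notes name RMA and Partek 6.2 without saying in which order, and joint normalization was not given in the sources used here. Array medians were 6.41 to 6.46 over all probe sets and 7.58 to 7.69 over the 14204 genes, which were used for centring, and correlations between arrays of a pool 0.9973 to 0.9985. Precision is limited by having 3 arrays of each pool.

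Of 31042 probe sets that are no controls, 20826 carried 1 gene symbol, 436 several and 9780 none in the platform annotation, and 20812 matched a current gene record. Genes were tested when the highest pool mean reached the detection level. All arrays entered 1 limma 3.58.1 fit (R 4.3.3) with 1 mean per strain and eBayes, with Benjamini-Hochberg adjustment across all 10887 genes. On simulated data the fit was checked to recover known changes. Members and lists were chosen with earlier results of these data known. Values on every array were given for members called in any comparison and for the 3 largest differences in each; Ganab and Nphp4 were added after their values were seen. Alternatives covered the filter, probe set choice, fold limit, variance model, arrays fitted, normalization, the replicate block and leaving out each array. Figures used matplotlib 3.10.9.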

Additional observations from a re-analysis of the deposited data

Results flagged for a closer look

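For 3 members the difference between mutant and partner pool was not the same in both pairs of pools by the interaction term of the limma fit. These passed the adjusted p and 1.5-fold, as did 5.02% of all tested genes. Each strain was 1 pool of RNA, so the term compares pools and cannot show a dependence on the background. The interaction was 0.60 for Ift140, -0.59 for Bbs1 and -0.66 for Ahi1, in log2 units as PCK minus SD less FHH.Pkhd1 minus FHH. For Ift140 it was 0.58 and under 1.5-fold without PCK replicate 1 or 3, 0.54 without FHH replicate 1, 0.57 without FHH.Pkhd1 replicate 2 and 0.58 after quantile normalization. For Bbs1 it was under 1.5-fold without PCK replicate 1 (-0.51), SD replicate 1 or 2 (-0.57 each), FHH replicate 3 (-0.55), or FHH.Pkhd1 replicate 1 (-0.54) or 3 (-0.57). For Ahi1 it was under 1.5-fold without SD replicate 1 (-0.56), FHH replicate 3 (-0.56) or FHH.Pkhd1 replicate 1 (-0.57), and it was -0.41 with the mean of the probe sets. The adjusted p stayed under 0.05 with each of these arrays left out and under those other settings, so that only the size limit was missed. The Ahi1 value was -0.62 with the PCK mean of Ahi1, which lay below the detection level, set at that level. In the interaction 3 of 3 red cell, 3 of 4 adrenal cortex and 4 of 6 dividing cell markers were called lower and 3 of 4 urothelium markers higher, and their part in these values was not tested.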

How the results depend on the processing

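No result reversed. Counts of called members, in the order of the report's comparisons with the interaction last, were 1, 0, 2, 0 and 3. With no fold limit they were 9, 9, 13, 12 and 8, and with a limit of 0.32 on the log2 scale 1, 1, 5, 1 and 5. With the mean of the probe sets PCK minus SD called 0 and PCK minus FHH.Pkhd1 called 1. PCK minus FHH.Pkhd1 called 1 with the stricter filter, where Ahi1 was no longer tested, and 1 with arrays centred on their medians. Leaving out each array in turn gave 0 to 1, 0 to 1, 1 to 2, 0 and 1 to 3. For the further cilium genes, 2, 1, 3 and 0 in the first 4 comparisons, no fold limit gave 24, 12, 43 and 25, and a limit of 0.32 gave 5, 3, 15 and 2. In FHH.Pkhd1 minus FHH they numbered 2 with the mean of the probe sets, 0 with the stricter filter, 0 after quantile normalization and 0 to 1 with an array left out. The technical replicate numbers did not pair the arrays (18 same-number correlations of deviations, -0.33 to 0.34, 6 of 12 arrays best with their own number); as a replicate block they gave 1, 0, 2, 0 and 3 members and 2, 1, 3 and 0 further genes. The causes were not tested. In all, 161 of 197 counts stayed within 1.5 times, and 366 of 393 values kept direction and call or moved by less than the array spread. Each pool is 1 RNA, so no setting bears on the spread between animals.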
